A study of Homo sapiens with 12 samples.

Results

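The autophagy and lysosome genes are 38 listed human genes that build autophagosomes, control their transcription, or form the membrane, the enzymes and the acid pump of the lysosome. They were chosen by symbol, and 37 of the 38 were found in both deposited tables, which share 18962 genes. GABARAPL1 was not analysed here. All 37 passed the filter on low values in each comparison, a mean normalized count of at least 10 over the 6 libraries. RNA came from IMR5, an established neuroblastoma cell line with amplification of the oncogene MYCN, in 4 groups of 3 libraries. The selinexor group was grown with 100 nM of selinexor, a drug that blocks XPO1, the export receptor of the nucleus, for 24 h. Its control was grown with DMSO, for a time the labels do not give. The XPO1 siRNA group was nucleofected with the siRNA numbered 10 against XPO1 and its control with negative control siRNA, and RNA was taken after 72 h. No group carried another genetic change than those of the line, the experiments rest on a single line, and a second siRNA was not analysed here. Nothing in the labels ties replicates to separate cultures, and the p-values therefore cover the spread between libraries alone, which may be technical.

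In autophagy a double membrane grows around cytoplasm and closes into an autophagosome, which fuses with a lysosome where acid hydrolases degrade the cargo. The ULK kinases and the BECN1 lipid kinase complex start the process, WIPI and ATG2 proteins and ATG9A supply the membrane, and a ubiquitin-like conjugation system attaches proteins of the ATG8 family to it. TFEB, TFE3 and MITF are related transcription factors that move between cytoplasm and nucleus and activate many genes of autophagy and the lysosome. Their location, which XPO1 helps to set, was not measured, and neither were protein levels or autophagic flux. In bulk RNA a change in all cells and a change in some of them cannot be told apart.

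With selinexor 15 members rose and 7 fell, and with XPO1 siRNA 14 rose and 7 fell (limma, Benjamini-Hochberg adjusted p under 0.05 over all genes tested). The members did not move as 1 block. The cathepsin CTSL rose most in both experiments, 3.44-fold and 2.16-fold, and ULK1, ULK2, ATG14, ATG2A, ATG2B, MAP1LC3B, NBR1 and the acid pump subunits ATP6V0A1 and ATP6V1H also rose in both. The conjugation gene ATG5, the cargo receptor SQSTM1, MITF and the lysosomal membrane protein LAMP1 fell in both. TFEB rose 1.82-fold with selinexor and fell 1.39-fold with XPO1 siRNA.

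Much of the transcriptome changed, so these counts are read against it. With selinexor 49.2% of 18128 tested genes passed the threshold, 22.9% higher and 26.3% lower, beside 59.5% of members, 40.5% higher and 18.9% lower. With XPO1 siRNA 54.5% of 17616 genes passed, 25.9% higher and 28.6% lower, beside 56.8% of members, 37.8% higher and 18.9% lower. Among the genes whose mean was 50 or more, 22.1% were called higher and 33.4% lower with selinexor, and 28.7% and 35% with XPO1 siRNA. The median log2 fold change of the members was 0.15 with selinexor and 0.08 with XPO1 siRNA, beside -0.0076 and 0.0024 over all genes tested. A called log2 fold change of 1 or more in size was seen in 2 members with selinexor, 5.41% beside 15.1% of all genes, and in 1 member with XPO1 siRNA, 2.7% beside 4.83%. The treated libraries lay wholly above or wholly below the controls for 26 members with selinexor, 70.3% beside 61.7% of all genes, and for 25 members with XPO1 siRNA, 67.6% beside 60.4%. When libraries were scaled to equal totals the split of the members moved to 18 higher and 4 lower with XPO1 siRNA, and that of all genes from 4561 higher and 5042 lower to 6057 and 3647. With selinexor that scaling gave 19 members higher and 3 lower, and moved all genes from 4146 higher and 4774 lower to 4644 and 4175. The share of members that were called at all is thus near that of all genes with XPO1 siRNA.

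**Figure D1:**
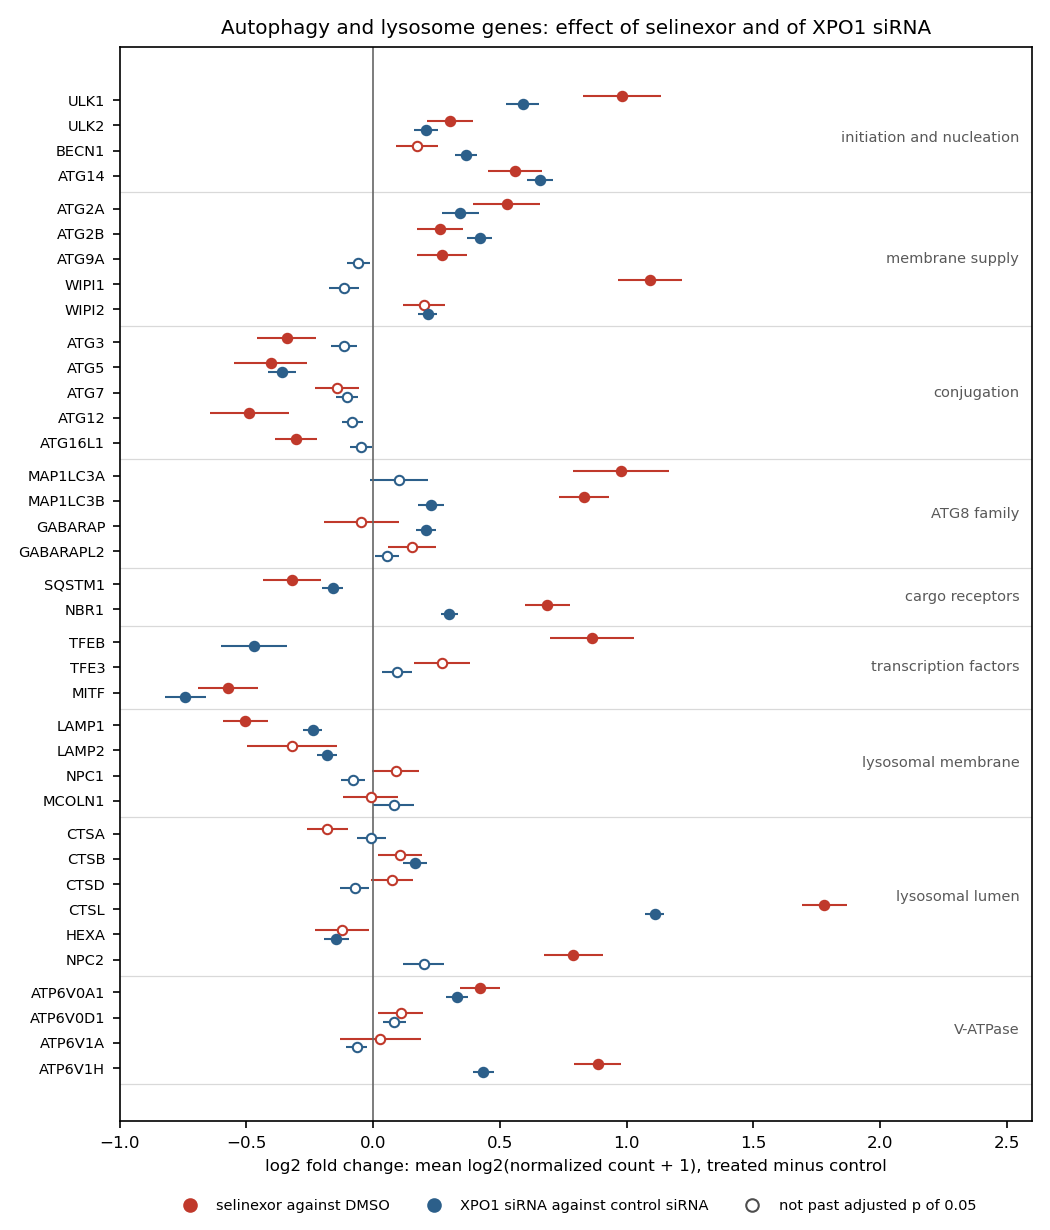
Log2 fold change of each of the 37 members with its standard error, by role, with selinexor (red) and with XPO1 siRNA (blue), 3 libraries a group; open circles did not pass the threshold. CTSL is the rightmost gene in both experiments, the conjugation genes lie left of 0, and TFEB has its red and blue points on opposite sides.

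The XPO1 transcript fell from 18568, 18950 and 18908 normalized counts with control siRNA to 4259.9, 4377 and 4397 with XPO1 siRNA, a log2 fold change of -2.11 ± 0.03 (SE), which fits the labels of these libraries. With selinexor it was at 18380 ± 507 (SD, n = 3) in DMSO and 19741 ± 3697 in treated cells, and this difference did not pass the threshold. Depth was roughly estimated at 26.8 to 55.8 M reads a library, from the spacing of low values, which did not all follow a single step. The noradrenergic neuroblastoma markers PHOX2A, HAND2, GATA3, ISL1, DBH, CHGA and MYCN were at 782 or above in every library, and TH was at 2.38 to 9.74 in the siRNA libraries. Of the leukocyte markers found in the tables, CD14 and CD74 were at 19.0 or below, while the fibroblast marker COL1A1 was at 611 to 1615. Of the other fibroblast markers COL3A1 was at 9.52 to 31.6, and COL1A2, found in the drug table alone, was at 1.2 to 13.5. LUM was lower in treated than in control libraries of both experiments, at 15.3 to 22.9 with DMSO and 3.27 to 8.46 with selinexor, and at 48.4 to 68.4 with control siRNA and 17.7 to 31.3 with XPO1 siRNA, and its part in the results was not tested. The endothelial marker KDR was at 6.55 to 28.8, and CDH5 was higher in treated than in control libraries of both experiments, at 26.6 to 36.8 in controls and 49.1 to 85.9 in treated cells, and its part in the results was not tested. Selinexor replicate 1 stood apart from the other selinexor libraries, with log2 correlations of 0.974 and 0.977 to them, where these 2 correlated at 0.991. It lay outside the range of the other 2 for 34 of 37 members, 13 above and 21 below, or 91.9% beside 84.6% of all genes tested. The share of counts from the abundant signal recognition particle RNAs of the RN7SL genes was 9.40% to 9.72% with DMSO and 12.6% to 16.0% with selinexor, 12.6% to 13.1% with control siRNA and 10.8% to 12.4% with XPO1 siRNA, and its part in the results was not tested. Without replicate 1 all 15 rises and 7 falls were still called, and 4 rises (BECN1, WIPI2, GABARAPL2 and ATP6V1A) and 2 falls (ATG7 and CTSA) were added. Over all genes the shares called moved as well, from 22.9% to 27.9% higher and from 26.3% to 33.2% lower. For GABARAP, NPC1 and ATP6V1A replicate 1 lay on the other side of the DMSO mean from both other selinexor libraries.

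**Figure D2:**
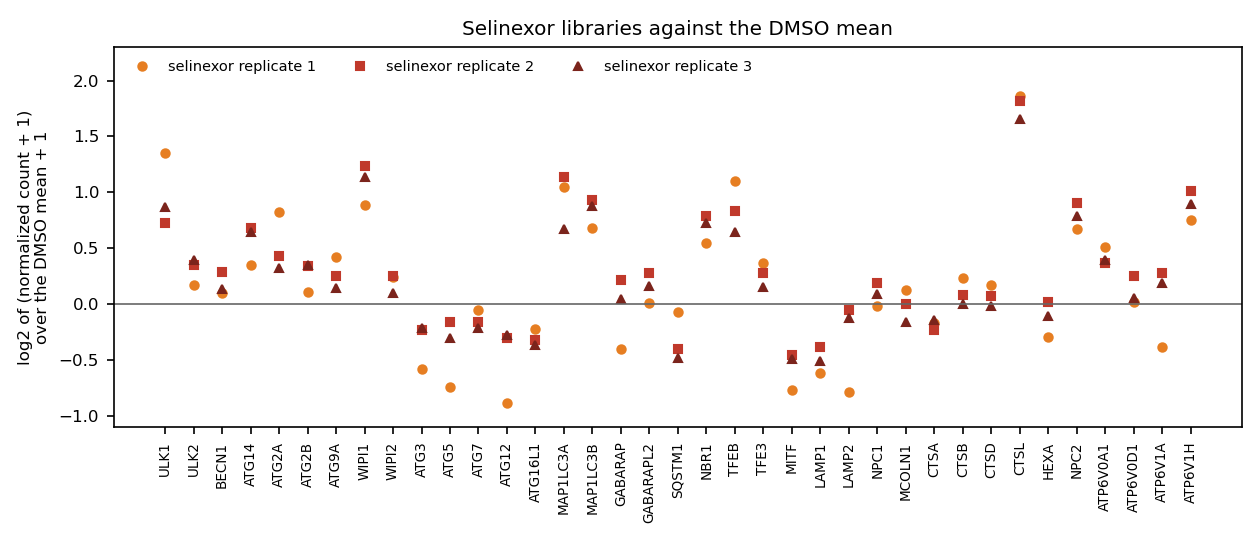
Log2 ratio of each selinexor library to the DMSO mean, both with 1 added, for the 37 members in order of role; the 3 symbols are the 3 selinexor libraries. Replicate 1 (circles) lies outside the other 2 for 34 members, far below them for ATG12, LAMP2 and ATP6V1A and above them for ULK1.

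Of the 4 members that start autophagy, 3 rose with selinexor and 4 with XPO1 siRNA, beside 22.9% and 25.9% of all genes called higher. All 4 had treated libraries above all controls in both experiments. Among all genes the groups did not overlap, in either direction, for 61.7% with selinexor and 60.4% with XPO1 siRNA. ULK1, the kinase that receives signals from mTORC1 and AMPK and starts autophagosome formation, lies at chr12:132379196-132407713 in hg19. It was at 844, 833 and 782 with DMSO and at 2099, 1354 and 1496 with selinexor. Every selinexor library was above every DMSO library, with replicate 1 highest. The rise was 0.98 ± 0.15 on the log2 scale (SE, adjusted p = 0.00109), and 0.80 without replicate 1. In the siRNA experiment ULK1 went from 901, 772 and 741 to 1217, 1199 and 1208, a log2 fold change of 0.59 ± 0.07 (adjusted p = 4.86e-06).

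ATG14, the subunit that directs the BECN1 complex to early autophagy, was at 813, 838 and 825 with DMSO and at 1054, 1327 and 1289.7 with selinexor (log2 0.56 ± 0.11, adjusted p = 0.0028). With control siRNA it was at 646, 635 and 679, and with XPO1 siRNA at 1045, 1009.7 and 1044 (log2 0.66 ± 0.05, adjusted p = 1.8e-07). The groups did not overlap in either experiment, and the 2 rises differed by -0.10 ± 0.11 (SE, adjusted p = 0.539). BECN1, the scaffold of the lipid kinase complex, rose from 2195 ± 86 to 2829 ± 82 with XPO1 siRNA (mean ± SD, n = 3, adjusted p = 6.19e-06). With selinexor it was at 2275 ± 49 and 2571 ± 179 (adjusted p = 0.111), and it passed the threshold there without replicate 1. The BECN1 span overlaps that of PSME3 on the other strand, whose mean was 4949, and the use of strand in counting is not given in the sources used here.

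ULK2, a kinase related to ULK1, rose by 0.30 ± 0.09 with selinexor (adjusted p = 0.0244) and by 0.21 ± 0.05 with XPO1 siRNA (adjusted p = 0.00238), both on the log2 scale. The selinexor call was lost when any 1 library other than selinexor replicate 1 was left out, with adjusted p from 0.0598 to 0.104. The rest of the initiation machinery, 9 other genes of the complexes, was mixed. With selinexor 2 of the 9 rose and 1 fell, and with XPO1 siRNA 5 rose and 3 fell. RB1CC1, the scaffold of the ULK complex, and PIK3C3, the catalytic lipid kinase, rose in both experiments by 0.27 to 0.40 on the log2 scale. PIK3R4, the regulatory subunit of the same kinase complex, fell by 0.77 with selinexor and by 0.24 with XPO1 siRNA.

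**Figure D3:**
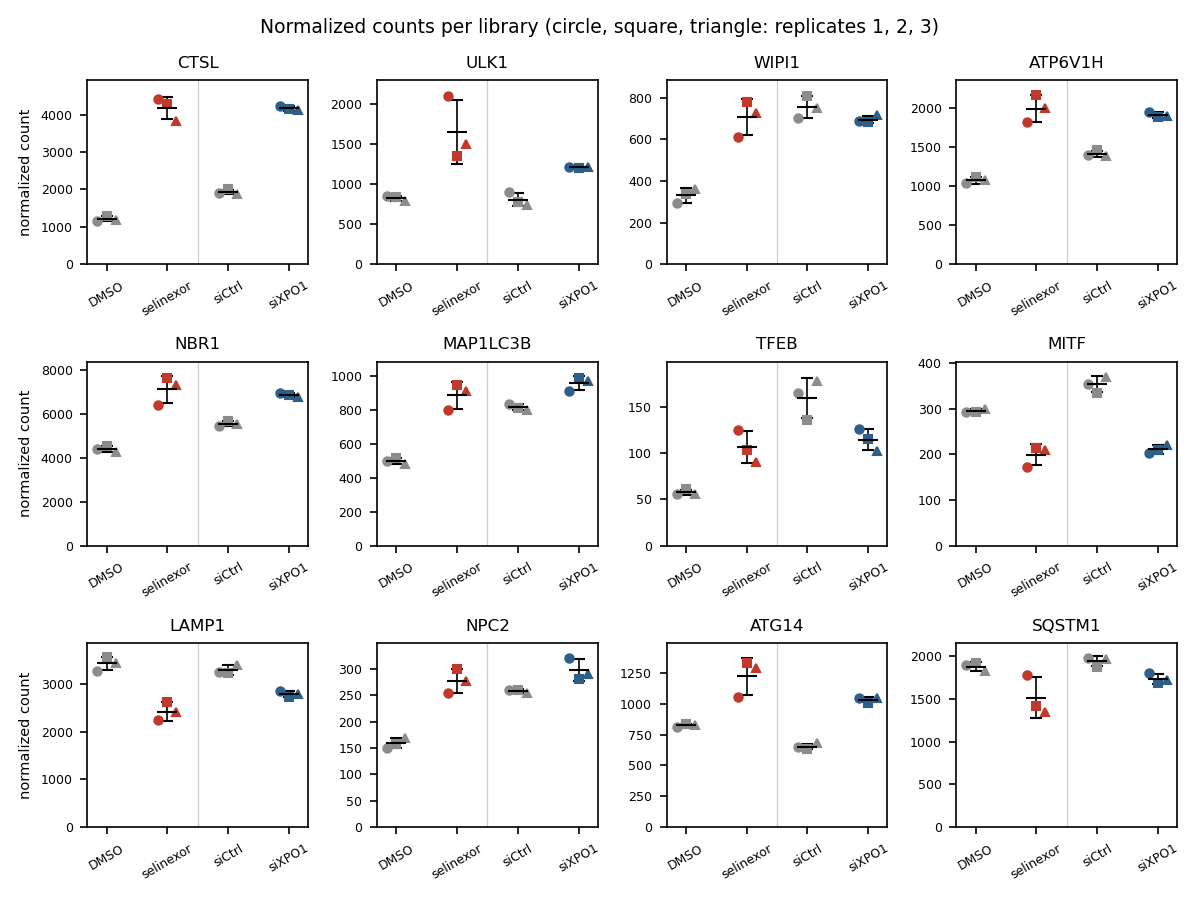
Normalized counts in every library for 12 members, with symbols for replicates 1 to 3 and black bars for the mean and SD of each group; the drug and siRNA tables were normalized separately, so levels left and right of the grey line are not on 1 scale. Treated and control libraries do not overlap in any panel for the drug experiment, and for the siRNA experiment they overlap in the WIPI1 panel.

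The genes that supply membrane to the growing autophagosome differed most between the experiments in WIPI1. WIPI1, which binds the lipid made by the BECN1 complex, lies at chr17:66417089-66453655 in hg19. It was at 292, 339 and 359.8 with DMSO and at 613, 780.5 and 726 with selinexor. The treated libraries were all above the controls, 2.13-fold on average (log2 1.09 ± 0.13, adjusted p = 0.000222). With control siRNA WIPI1 was at 703, 809 and 750.3, and with XPO1 siRNA at 685, 685 and 715. These groups overlapped and the difference did not pass the threshold (log2 -0.12 ± 0.06, adjusted p = 0.126). The span of WIPI1 overlaps that of ARSG, a sulfatase gene on the other strand with a mean of 262.

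ATG2A and ATG2B, which carry lipids into the growing membrane, rose in both experiments. ATG2A went from 554, 537 and 532 with DMSO to 959, 727 and 679 with selinexor (log2 0.53 ± 0.13, adjusted p = 0.0113) and rose by 0.34 ± 0.07 with XPO1 siRNA (adjusted p = 0.00136). ATG2B rose by 0.26 ± 0.09 with selinexor (adjusted p = 0.0403) and by 0.42 ± 0.05 with XPO1 siRNA (adjusted p = 6.81e-06). ATG9A, the membrane protein of the vesicles that seed autophagosomes, rose by 0.27 ± 0.10 with selinexor (adjusted p = 0.0462) and was at -0.06 ± 0.05 with XPO1 siRNA (adjusted p = 0.3). The selinexor calls of ATG2B and ATG9A stood close to the threshold: each was lost without any 1 of the 3 DMSO libraries and without selinexor replicate 2, and ATG2B also without selinexor replicate 3. WIPI2, which recruits the conjugation machinery, rose by 0.22 ± 0.04 with XPO1 siRNA (adjusted p = 0.000349), and with selinexor its log2 fold change of 0.20 ± 0.08 missed the threshold (adjusted p = 0.0788). Among 6 other genes of this step WDR45, a relative of WIPI1, rose by 0.82 with selinexor and 0.77 with XPO1 siRNA. WDR45B and the scramblase VMP1 fell in both experiments, by 0.43 and 0.33 with selinexor and by 0.28 and 0.33 with XPO1 siRNA.

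Of the 5 members of the conjugation system 4 fell and none rose with selinexor, beside 26.3% of all genes called lower. With XPO1 siRNA 1 of the 5 fell, 20% beside 28.6% of all genes called lower, and none rose. ATG12, the ubiquitin-like protein joined to ATG5, was at 2171, 2339.99 and 2315 with DMSO and at 1229.8, 1846 and 1873 with selinexor. All selinexor libraries were below all DMSO libraries, and replicate 1 was far below the other 2. The fall was 0.49 ± 0.16 on the log2 scale (log2 fold change -0.49, adjusted p = 0.0308), and 0.29 without replicate 1 (log2 fold change -0.29). ATG5 went from 1139, 1199 and 1138 to 692, 1034 and 936 with selinexor (log2 -0.40 ± 0.14, adjusted p = 0.0445), and without replicate 1 its log2 fold change was -0.24. With XPO1 siRNA ATG5 fell from 1468, 1525 and 1475 to 1231, 1196 and 1062 (log2 -0.36 ± 0.06, adjusted p = 9.64e-05).

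ATG3, the enzyme that transfers ATG8 proteins to lipid, fell with selinexor by 0.34 ± 0.12 (log2 fold change -0.34, adjusted p = 0.038), and without replicate 1 its log2 fold change was -0.22. ATG16L1, which fixes the site of conjugation, fell by 0.31 ± 0.08 (log2 fold change -0.31, adjusted p = 0.0161). With XPO1 siRNA the log2 fold changes of ATG3, ATG12 and ATG16L1 were -0.11, -0.08 and -0.05 and did not pass. ATG7, the activating enzyme, was at -0.14 and -0.10 in the 2 experiments and did not pass in either. The selinexor falls depended on the libraries used. Those of ATG3, ATG5 and ATG12 were lost without any 1 DMSO library, that of ATG5 also without selinexor replicate 3, and that of ATG16L1 without DMSO replicate 2 or 3. With libraries scaled to equal totals ATG3 had an adjusted p of 0.0579, ATG5 of 0.0548 and ATG16L1 of 0.0605. Among 6 other conjugation genes each experiment had 1 rise and 1 fall called. The fall was in both cases that of ATG4C, a protease that processes ATG8 proteins, by 0.93 with selinexor and 0.71 with XPO1 siRNA. In the latter ATG4C went from 894 ± 45 to 544 ± 19 (mean ± SD, n = 3). The gene called higher was ATG16L2 for the drug (log2 fold change 0.80, adjusted p = 0.00263) and ATG4B for the siRNA (0.19, adjusted p = 0.0138). Neither passed in the other experiment.

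The ATG8 family proteins coat the autophagosome membrane, and the LC3 genes of this family rose with selinexor. MAP1LC3B, whose lipid-bound protein is the usual marker of autophagosomes, was at 496, 514 and 479 with DMSO and at 797, 948 and 911 with selinexor (log2 0.83 ± 0.10, adjusted p = 0.000246). With XPO1 siRNA it went from 833, 812 and 798 to 910.2, 989 and 967 (log2 0.23 ± 0.05, adjusted p = 0.002). The groups did not overlap in either experiment, and the selinexor rise was the larger by 0.60 ± 0.11 (adjusted p = 0.000893). MAP1LC3B2, a near-identical copy on another locus, had values of 128.9 ± 6.6 with selinexor and 69.3 ± 6.8 with DMSO (mean ± SD, n = 3), and how reads were split between the copies is not given in the sources used here.

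MAP1LC3A was at 99.7, 152 and 110.1 with DMSO and at 251, 266 and 193 with selinexor, 1.97-fold higher (log2 0.98 ± 0.19, adjusted p = 0.00334). With control siRNA it was at 252, 246 and 202, and with XPO1 siRNA at 278, 261 and 214, groups that overlap (log2 0.10 ± 0.11, adjusted p = 0.476). Neither analysed gene of the GABARAP branch, which acts in later steps, was called with selinexor. A difference between the branches was not tested. GABARAP was at 4165, 4505 and 4484 with DMSO and at 3310.2, 5097 and 4520.1 with selinexor, with the groups overlapping and replicate 1 below every DMSO library. With XPO1 siRNA it rose from 4927, 4939 and 5111 to 6083, 5519.5 and 5717 (log2 0.21 ± 0.04, adjusted p = 0.000528). GABARAPL2 passed in neither experiment, at 0.15 ± 0.09 with selinexor and 0.05 ± 0.05 with XPO1 siRNA. Without selinexor replicate 1 it passed with selinexor (log2 0.22, adjusted p = 0.00642), while GABARAP was at 0.13 (adjusted p = 0.0792). With equal totals GABARAPL2 passed in both experiments (adjusted p = 0.0383 with selinexor and 0.0195 with XPO1 siRNA).

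The 2 cargo receptors moved in opposite directions in both experiments. SQSTM1, also called p62, links ubiquitinated cargo to ATG8 proteins, and it was at 1893, 1915 and 1819.8 with DMSO and at 1782, 1418 and 1344 with selinexor (log2 -0.32 ± 0.11, adjusted p = 0.0454). Selinexor replicate 1 lay just below the lowest DMSO library, and without it the log2 fold change was -0.44. That call was lost without any 1 of the 5 other libraries, and with equal totals (adjusted p = 0.158). With XPO1 siRNA SQSTM1 went from 1975, 1876 and 1967 to 1801, 1689.8 and 1717 (log2 -0.16 ± 0.04, adjusted p = 0.00605), and with equal totals it did not pass (adjusted p = 0.166).

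NBR1, a receptor of related build, was at 4409.9, 4519.7 and 4262 with DMSO and at 6404, 7609.9 and 7281 with selinexor (log2 0.69 ± 0.09, adjusted p = 0.000378). It rose from 5549 ± 124 to 6836 ± 86 with XPO1 siRNA (mean ± SD, n = 3, log2 0.30 ± 0.03, adjusted p = 4.19e-06). Among 11 other receptor genes OPTN, a receptor for damaged mitochondria and bacteria, was at 126, 103 and 97.5 with DMSO and at 792, 568 and 568 with selinexor, 5.83-fold higher. It rose 1.86-fold with XPO1 siRNA. BNIP3, a hypoxia-induced receptor of mitophagy, fell 2.15-fold with XPO1 siRNA, from 2083, 3201 and 2528 to 1379.6, 1089 and 1122, and its log2 fold change of -0.11 with selinexor did not pass. Its control mean was 774 with DMSO and 2604 with control siRNA in the separately normalized tables. WDFY3, an adaptor for protein aggregates, rose by 0.39 and 0.61 on the log2 scale with selinexor and XPO1 siRNA. Of these 11, 4 rose and none fell with selinexor, and 4 rose and 2 fell with XPO1 siRNA.

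Among the transcription factors TFEB moved in opposite directions in the 2 experiments. TFEB lies at chr6:41651716-41703998 in hg19. It was at 55.9, 60.9 and 56.0 with DMSO and at 125, 104 and 90.6 with selinexor, all above the controls (log2 0.86 ± 0.17, adjusted p = 0.00307). With control siRNA it was at 165, 136 and 178, and with XPO1 siRNA at 126, 116 and 102, all below the controls (log2 -0.47 ± 0.13, adjusted p = 0.0075). The 2 effects differed by 1.33 ± 0.21 on the log2 scale (adjusted p = 0.000388). TFEB is a gene of low value, and its control level was 57.6 with DMSO and 159.8 with control siRNA in the separately normalized tables. That is a ratio of 2.77, beside a median ratio of 1.198 over the 37 members, and those 2 sets of controls also differed in treatment.

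MITF was at 292, 293 and 299.7 with DMSO and at 173, 215 and 209.5 with selinexor (log2 -0.57 ± 0.12, adjusted p = 0.00445). With XPO1 siRNA it went from 355, 335 and 369.9 to 203, 209 and 221 (log2 -0.74 ± 0.08, adjusted p = 4.41e-06). All treated libraries were below all controls in both experiments, and MITF had the lowest log2 fold change of the 37 members in each. TFE3 was at 438, 502 and 541 with DMSO and at 636, 599 and 549 with selinexor (log2 0.27 ± 0.11, adjusted p = 0.074). With XPO1 siRNA its log2 fold change was 0.09 ± 0.06 (adjusted p = 0.199), and with equal totals it passed the threshold in both experiments. Among 5 other genes listed with these factors, ZKSCAN3, a repressor of autophagy genes, rose by 0.37 with selinexor and 0.49 with XPO1 siRNA. FOXO3 was at 0.01 with selinexor, which did not pass, and rose by 0.22 with XPO1 siRNA. FOXO1, named after its values were seen, rose by 0.87 with selinexor and was at -0.18 with XPO1 siRNA, which did not pass. The same list held DRAM1, which is a lysosomal membrane protein and a target of p53 and not itself a transcription factor. It was at 74.8, 91.8 and 82.1 with DMSO and at 1190.4, 1465 and 1337 with selinexor, and rose from 147 ± 14 to 885 ± 35 with XPO1 siRNA (mean ± SD, n = 3).

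TFEB and its relatives bind an E-box, CACGTG, often preceded by T, so the members' promoters were searched for it. RefSeq promoter windows of build GRCh38.p14, from 250 bases before to 50 after a gene's start, were matched by symbol for 31 of the 37 members. CACGTG reads the same on both strands. A gene can have several windows, and CACGTG was found in 1 or more for 7 of the 31 members, or 22.6%, beside 8.77% of all 27305 genes with a window. Counted by window it was in 7 of the members' 41, or 17.1%, beside 7.26% of all 35116. TCACGTG, which contains CACGTG and was searched on both strands, was found for the same 7, beside 4.49% of all genes and 3.71% of all windows. A match is a description of the letters and no evidence of binding. The stretches before the start sites of these 7 genes are shown, 5′ to 3′ on the gene's strand, from 12 bases before the first match to the last base before the start, with CACGTG in capitals, because they set the members with the letters beside their measured changes.
LAMP1: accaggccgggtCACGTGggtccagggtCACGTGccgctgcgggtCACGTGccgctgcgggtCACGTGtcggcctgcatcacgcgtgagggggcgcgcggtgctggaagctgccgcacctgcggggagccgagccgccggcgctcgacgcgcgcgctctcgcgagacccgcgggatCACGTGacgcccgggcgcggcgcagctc
MCOLN1: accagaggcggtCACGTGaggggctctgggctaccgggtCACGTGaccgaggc
CTSA: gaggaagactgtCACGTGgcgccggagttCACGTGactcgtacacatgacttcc
CTSD: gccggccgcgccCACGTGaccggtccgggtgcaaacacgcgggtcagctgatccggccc
ATP6V0D1: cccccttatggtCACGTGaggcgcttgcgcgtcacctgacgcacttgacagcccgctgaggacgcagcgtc
ATG14: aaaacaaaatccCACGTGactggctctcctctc
ATG3: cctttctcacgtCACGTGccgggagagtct

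These stretches are at chr13:113297035-113297238 for LAMP1 on the plus strand, chr19:7522571-7522623 for MCOLN1 on the plus strand and chr20:45891281-45891334 for CTSA on the plus strand. Those on the minus strand are at chr11:1763928-1763986 for CTSD, chr16:67481158-67481228 for ATP6V0D1, chr14:55411831-55411863 for ATG14 and chr3:112561963-112561992 for ATG3. LAMP1 had 6 matches in its window, of which 5 lie wholly before the start and are shown, and 4 of these stand close together from -192 to -142. MCOLN1 and CTSA had 2 each, and ATG3 had 1 before and 1 after its start. Of the 7 genes, ATG14 rose in both experiments, LAMP1 fell in both, ATG3 fell with selinexor, and the other 4 passed in neither. The median log2 fold change of the 7 was -0.0094 with selinexor and -0.0066 with XPO1 siRNA, beside 0.27 and 0.15 for the 24 members with a window and no match. CTSL, WIPI1, ULK1, TFEB and MAP1LC3B, the 5 members with a window that rose most with selinexor, had no match in these windows. Letters outside the windows were not searched, so a missing match is no evidence that binding or control is missing. Which factors bind these letters in IMR5 cells was not tested.

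**Figure D4:**
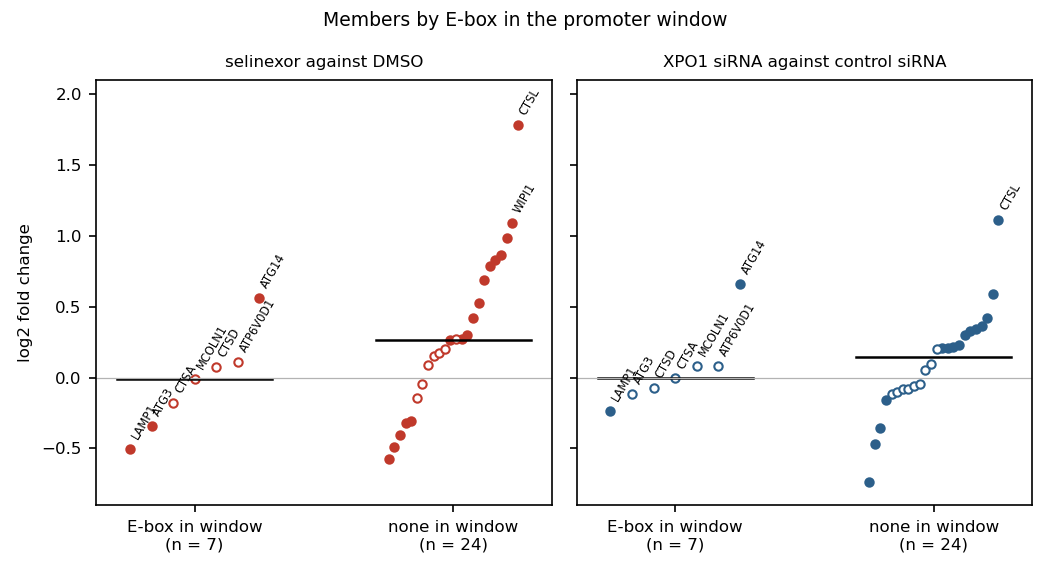
Log2 fold change of the 31 members with a RefSeq promoter window, split by whether the window holds CACGTG, for selinexor (left) and XPO1 siRNA (right); filled circles passed the threshold and the black line is the median. The 7 genes with the letters run from LAMP1 below 0 to ATG14 above it, with medians near 0.

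Of the 4 members of the lysosomal membrane none rose in either experiment, beside 22.9% and 25.9% of all genes called higher with selinexor and XPO1 siRNA. With selinexor 1 of the 4 fell, 25% beside 26.3% of all genes called lower. With XPO1 siRNA 2 fell, 50% beside 28.6%. LAMP1, an abundant protein of that membrane, was at 3286, 3570.3 and 3448 with DMSO and at 2240.4, 2628 and 2406 with selinexor (log2 -0.50 ± 0.09, adjusted p = 0.00184). With XPO1 siRNA it went from 3245, 3238 and 3411 to 2858, 2739.98 and 2791 (log2 -0.24 ± 0.04, adjusted p = 0.000121). All treated libraries were below all controls in both. LAMP2, its relative and a receptor in chaperone-mediated autophagy, fell with XPO1 siRNA from 3095 ± 105 to 2729 ± 76 (mean ± SD, n = 3, adjusted p = 0.00157), and with equal totals this did not pass (adjusted p = 0.0619). With selinexor LAMP2 was at 1357, 2249 and 2141, beside 2229, 2372 and 2408 with DMSO, so the groups overlapped and only replicate 1 was far below (adjusted p = 0.164). NPC1, the cholesterol exporter, and MCOLN1, the calcium channel of the lysosome, passed in neither experiment, with log2 fold changes between -0.08 and 0.09. Of 15 other membrane genes 2 rose and 2 fell with selinexor, and 4 rose and 6 fell with XPO1 siRNA. SCARB2, the receptor that carries glucocerebrosidase, rose in both, by 0.39 and 0.29. LAPTM4B fell in both, by 0.42 and 0.22, and SLC17A5, the sialic acid exporter, fell by 0.62 with XPO1 siRNA and was at 0.18 with selinexor, which did not pass.

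Of the 6 members of the lumen CTSL had the highest log2 fold change in both experiments. CTSL, a cysteine protease that degrades proteins in the lysosome, lies at chr9:90340434-90346309 in hg19. It was at 1166, 1286 and 1192 with DMSO and at 4414, 4292 and 3836 with selinexor. It was at 1911, 2006 and 1880.2 with control siRNA and at 4244, 4155 and 4124 with XPO1 siRNA. In each experiment every treated library was above every control library. The log2 fold changes were 1.78 ± 0.09 (adjusted p = 2.73e-06) and 1.11 ± 0.04 (adjusted p = 5.65e-11), and they placed CTSL at rank 538 of 18128 and rank 474 of 17616 tested genes by log2 fold change. The selinexor effect was the larger by 0.67 ± 0.09 (adjusted p = 0.000148).

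The other cathepsins among the members had smaller log2 fold changes. CTSB, a related cysteine protease, was at 1425 ± 29 with DMSO and 1537 ± 125 with selinexor (mean ± SD, n = 3, adjusted p = 0.341), and rose by 0.17 ± 0.05 with XPO1 siRNA (adjusted p = 0.00817). CTSD, an aspartic protease, was at 0.07 and -0.07 on the log2 scale and passed in neither. CTSA, a carboxypeptidase that protects other hydrolases, was at 819 ± 19 with DMSO and 722 ± 22 with selinexor, groups that did not overlap, but missed the threshold (adjusted p = 0.0991). HEXA, the alpha subunit of hexosaminidase, fell by 0.15 ± 0.05 with XPO1 siRNA (log2 fold change -0.15, adjusted p = 0.0206). That call was lost without control siRNA replicate 3, without XPO1 siRNA replicate 1 or 2, and with equal totals (adjusted p = 0.397). NPC2, which hands cholesterol to NPC1, was at 150.4, 158 and 169 with DMSO and at 253, 299 and 276 with selinexor (log2 0.79 ± 0.12, adjusted p = 0.000776). With XPO1 siRNA it was at 320.5, 281 and 289, all above the control values of 260.04, 260.07 and 254, and narrowly missed the threshold (log2 0.20 ± 0.08, adjusted p = 0.0523).

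The wider set of lumen genes moved in both directions. Of 43 other genes 20 rose and 7 fell with selinexor, and of 42 tested 15 rose and 12 fell with XPO1 siRNA. IGF2R, the receptor that sorts hydrolases to the lysosome, rose 1.95-fold with selinexor and 1.54-fold with XPO1 siRNA. ACP2, an acid phosphatase, rose by 0.30 with selinexor and 0.65 with XPO1 siRNA on the log2 scale. CTSH, a cysteine protease, fell by 0.68 with XPO1 siRNA, and its log2 fold change of -0.16 with selinexor did not pass. Among genes of low value CTSZ, a cathepsin, went from 4.40 ± 0.82 to 18.1 ± 4.4 with selinexor (mean ± SD, n = 3), 1.81 on the log2 scale. Its DMSO mean alone was below the filter on low values, so it was tested only because its selinexor values were high. Its change is therefore not ranked against that of CTSL. In the siRNA experiment CTSZ was below the filter. FUCA1, a fucosidase, rose by 1.3996 and 1.27, and IDUA, an iduronidase, rose by 1.54 with selinexor and was at 0.38 with XPO1 siRNA, which did not pass. SGSH, a sulfamidase, rose by 1.08 and 0.67, from 278 ± 7 to 594 ± 92 with selinexor. These 4 were named after their values were seen. TPP1, a peptidase also named after its values were seen, rose 2.23-fold with selinexor, from 110.2 ± 1.0 to 253 ± 67 (mean ± SD, n = 3), and its log2 fold change of -0.13 with XPO1 siRNA did not pass.

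The V-ATPase pumps protons into the lysosome, and its subunits changed unequally. ATP6V1H, the regulatory H subunit of the peripheral part, was at 1032, 1117 and 1071 with DMSO and at 1813, 2166 and 1992 with selinexor (log2 0.89 ± 0.09, adjusted p = 0.000129). It rose from 1393, 1459.5 and 1389 to 1951, 1886 and 1895 with XPO1 siRNA (log2 0.43 ± 0.04, adjusted p = 1.28e-06). ATP6V0A1, an a subunit of the membrane part, rose from 2371 ± 57 to 3176 ± 168 with selinexor and from 2589.6 ± 138 to 3254 ± 58 with XPO1 siRNA (mean ± SD, n = 3, adjusted p = 0.0026 and 2.15e-05). ATP6V0A2, another a subunit that is not among the members, fell in both experiments, by 0.84 and 0.34 on the log2 scale. ATP6V0D1 and ATP6V1A passed in neither, with log2 fold changes between -0.07 and 0.11, and ATP6V1A was at 2868 in selinexor replicate 1 and at 4534 and 4243 in the other 2, beside 3676 to 3831 with DMSO. Of 17 other subunits and assembly factors 4 rose and 2 fell with selinexor, and 6 rose and 5 fell with XPO1 siRNA. ATP6V1G1 rose by 0.32 and 0.27, and ATP6V0B was at -0.27 with selinexor, which did not pass, and fell by 0.20 with XPO1 siRNA.

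Set side by side, 10 of the 37 members rose in both experiments, 27% beside 13% of the 17308 genes tested in both. Another 4 fell in both, 10.8% beside 18.3% of all genes. Those that rose in both were ULK1, ULK2, ATG14, ATG2A, ATG2B, MAP1LC3B, NBR1, CTSL, ATP6V0A1 and ATP6V1H. Those that fell in both were ATG5, SQSTM1, MITF and LAMP1. TFEB was the single member called in opposite directions, 2.7% beside 2.54% of all genes, and 9 members passed in neither. The experiments share no libraries, but they differ in agent, delivery and time, and these cannot be told apart.

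The difference between the 2 effects was tested in all 12 libraries, and 11 of 37 members passed, 29.7% beside 31.8% of 17308 genes tested. In 9 the selinexor effect lay above the knockdown effect. These were TFEB, WIPI1, MAP1LC3A, CTSL, MAP1LC3B, NPC2, ATP6V1H, NBR1 and ATG9A. The median difference over all genes was -0.07, and of all genes 2010 lay above and 3500 below. In ATG16L1 and LAMP1 the selinexor effect lay below. The calls of 3 members depended on single libraries. That of ATG9A was lost without DMSO replicate 1, control siRNA replicate 1 or 3, or XPO1 siRNA replicate 2 or 3. Those of ATG16L1 and LAMP1 were lost without DMSO replicate 2 or 3, selinexor replicate 3, control siRNA replicate 1 or 2, or any 1 XPO1 siRNA replicate, and that of ATG16L1 also without control siRNA replicate 3. Without selinexor replicate 1, 15 members passed. Over all genes that omission moved the shares called from 11.6% to 16.5% above and from 20.2% to 27.5% below. Not passing does not show that effects were alike: for ULK1 the difference was 0.39 ± 0.18 (SE, adjusted p = 0.117), and for ATG12 -0.41 ± 0.17 (adjusted p = 0.0924). The ULK1 difference passed without selinexor replicate 2, at 0.52 (adjusted p = 0.0249). That of ATG12 passed without any 1 selinexor library, at -0.21 without replicate 1 (adjusted p = 0.0163) and at -0.50 and -0.51 without replicates 2 and 3. All 9 had lower values with DMSO than with control siRNA in the separately normalized tables. The ratio of the control siRNA mean to the DMSO mean was 2.77 for TFEB, 2.28 for WIPI1 and 1.94 for MAP1LC3A. It was 1.64 for MAP1LC3B, 1.62 for NPC2, 1.59 for CTSL, 1.37 for ATG9A, 1.32 for ATP6V1H and 1.26 for NBR1. For LAMP1 and ATG16L1, where the selinexor effect lay below, it was 0.96 and 1.05. Over the 37 members the median ratio was 1.198 and the range 0.79 to 2.77. The part of the control level in these differences was not tested.

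**Figure D5:**
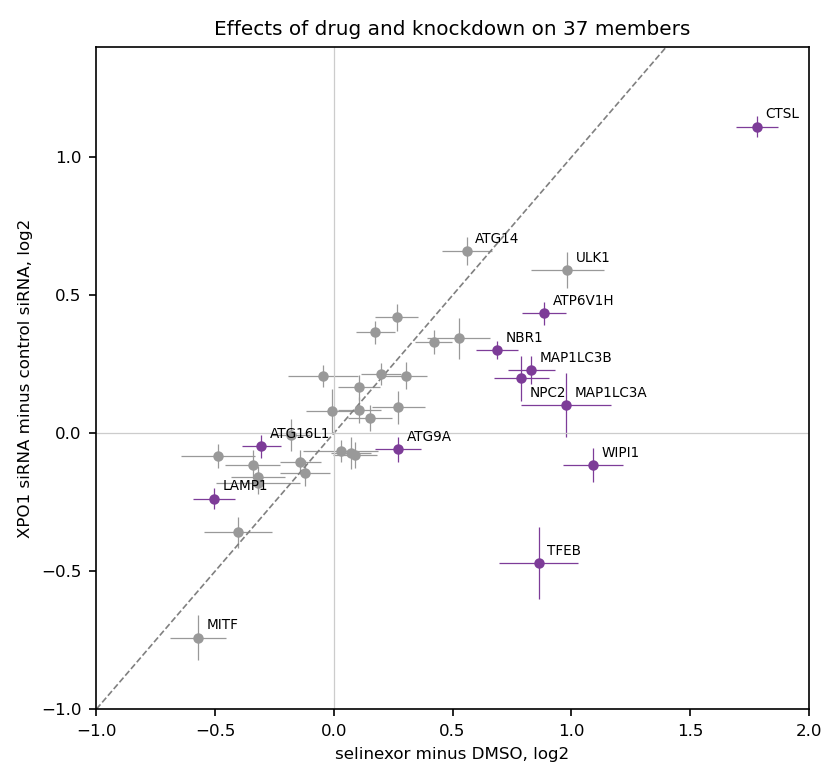
Log2 fold change with XPO1 siRNA against that with selinexor for the 37 members, with standard errors; purple marks the 11 members whose effects differed and the dashed line marks equal effects. TFEB lies at 0.86 with selinexor and -0.47 with XPO1 siRNA, and WIPI1 and MAP1LC3A lie far right of the line.

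Upstream of ULK1 and TFEB, 31 genes of mTORC1 and nutrient sensing were listed, the pathway that holds autophagy down when nutrients are present. With selinexor 10 rose and 5 fell, 48.4% beside 49.2% of all genes, and with XPO1 siRNA 11 rose and 9 fell, 64.5% beside 54.5%. SESN1, a sestrin that restrains mTORC1 and a target of p53, was at 352, 441 and 365 with DMSO and at 1612, 2569 and 2414 with selinexor, 5.6-fold higher. It rose from 386, 426 and 413 to 1602, 1570.2 and 1501 with XPO1 siRNA, 3.81-fold. TSC1, a subunit of the complex that inhibits mTORC1, rose by 0.24 with selinexor and 0.52 with XPO1 siRNA, and FNIP2, a partner of folliculin in amino acid sensing, rose by 0.47 and 0.51. The following were named after their values were seen. RHEB had the lowest log2 fold change of the 31 with selinexor, at -0.60, and was at -0.40 with XPO1 siRNA. The other genes named here all rose with selinexor, where 5 of the 31 fell. SESN2, a leucine sensor of the sestrin family, rose 3.73-fold with selinexor and 1.41-fold with XPO1 siRNA. SESN3 rose 2.07-fold with selinexor and fell 1.12-fold with XPO1 siRNA (log2 -0.16 ± 0.06, adjusted p = 0.0397). In that fall the groups overlapped, at 2295, 2573 and 2107 with control siRNA and 2005, 2080.5 and 2145 with XPO1 siRNA. DDIT4, a stress-induced inhibitor of mTORC1, rose 1.57-fold with selinexor and fell 2.17-fold with XPO1 siRNA, from 5081, 7347 and 5716 with control siRNA to 2995, 2624 and 2647. In the separately normalized tables the control mean of DDIT4 was 1251 with DMSO and 6048 with control siRNA. That of SESN3 was 1094 and 2325. With selinexor the mean of DDIT4 was 1969. The part of these control levels in the opposite calls was not tested.

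Over all 155 other pathway genes 51 rose and 22 fell with selinexor, 47.1% in all, and over 154 tested genes 55 rose and 43 fell with XPO1 siRNA, 63.6% in all, beside 49.2% and 54.5% of all genes. Their medians were 0.05 in both. Of 11 genes of autophagosome fusion 2 rose and 1 fell with selinexor, and 4 rose and 2 fell with XPO1 siRNA. PLEKHM1, an adaptor that joins autophagosomes to lysosomes, rose by 0.64 and 0.39. VPS18 and VPS41, subunits of the tethering complexes, rose by 0.35 and 0.43 with XPO1 siRNA, and their log2 fold changes of 0.08 and 0.13 with selinexor did not pass.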

How the data were processed

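RNA was measured in 12 libraries of IMR5 cells, grouped by sample title into DMSO, selinexor, control siRNA and XPO1 siRNA, 3 each. Per the labels' protocols the libraries were strand-specific total RNA. Build hg19 and the tools DESeq2, Partek and STAR 2.7.3a are named, per the submitters' processing notes; the annotation is not given in the sources used here, nor is the strand setting of the counting. As deposited, the values are a signal, taken here to be the authors' read counts per gene after division by each library's size factor. They were made separately for the drug table (20029 genes) and the siRNA table (19610 genes). For each library a step was chosen by search, the one of which most low values were whole multiples within 0.02. Between 61.9% and 66.7% of low values were such multiples. Chance gives 4% for a step fixed beforehand, and the share for a searched step was not computed. As many low values were not multiples, reads were not recovered and count models were not used. The depth estimates rest on the same step. The siRNA table held 3 further columns of values that match no sample and were not used, and 25 symbols turned into dates were not restored.

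Genes with a mean of at least 10 over a table's 6 libraries went into the linear models of limma 3.58.1, run in R 4.3.3 (lmFit, eBayes, intensity trend). Values entered as log2(value + 1), tests were two-sided, and Benjamini-Hochberg adjusted p under 0.05 over all genes was the threshold. Fold changes are on that scale, which understates changes of low genes. The difference of effects was fitted over 12 libraries with 4 group means. The steps were tested on simulated data. The members and lists were chosen with earlier results of these data known. All members were named, with up to 3 called genes per role of smallest adjusted p from the list of other pathway genes, and XPO1. Of the 37 members 21 have spans that overlap another gene of the tables. Promoter letters came from RefSeq. Some cell type markers are not reported here. The alternatives comprised no filter or a mean of at least 50, a pseudocount of 0.5 or 5, equal totals, a 30% trimmed mean, no intensity trend, a replicate block and leaving out each replicate. Python 3.11.15 with matplotlib 3.10.9, numpy 2.4.6 and pandas 2.3.3 made the tables and figures.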

Additional observations from a re-analysis of the deposited data

Results flagged for a closer look

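The following genes are listed because their effect with selinexor and their effect with XPO1 siRNA differed by the limma test of the difference, given as selinexor minus knockdown on the log2 scale. Among the members the differences were 1.33 for TFEB, 1.21 for WIPI1, 0.88 for MAP1LC3A, 0.67 for CTSL, 0.60 for MAP1LC3B, 0.59 for NPC2, 0.45 for ATP6V1H, 0.39 for NBR1, 0.33 for ATG9A, -0.26 for ATG16L1 and -0.27 for LAMP1. Among the other pathway genes named, DDIT4 differed by 1.77, OPTN by 1.65, DRAM1 by 1.41, SESN2 by 1.399, TPP1 by 1.29, SESN3 by 1.21, IDUA by 1.16, FOXO1 by 1.055, BNIP3 by 0.99, SLC17A5 by 0.80, MAP1LC3B2 by 0.75, ATG16L2 by 0.65, CTSH by 0.52 and IGF2R by 0.34. The IDUA difference was lost without DMSO replicate 1 or 3, control siRNA replicate 1 or 3 or XPO1 siRNA replicate 1, and with a replicate block, with adjusted p from 0.0612 to 0.0817. Differences below 0 were -0.53 for PIK3R4, -0.50 for ATP6V0A2, -0.35 for ACP2, -0.30 for VPS41 and -0.29 for TSC1. For DDIT4 and SESN3, as for TFEB, the effects were called in opposite directions. The fall of SESN3 with XPO1 siRNA was small (log2 -0.16, adjusted p = 0.0397) and its groups overlapped, unlike those of TFEB and DDIT4. The experiments differ in agent, dose and time, and no group had the 4 or more libraries that a search for single outlying values needs.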

How the results depend on the processing

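Of the 22 members called with selinexor, 14 were called under all 14 alternatives: 12 rises (ULK1, ATG14, ATG2A, WIPI1, MAP1LC3A, MAP1LC3B, NBR1, TFEB, CTSL, NPC2, ATP6V0A1 and ATP6V1H) and 2 falls (MITF and LAMP1). Of the 21 called with XPO1 siRNA 18 were, all but SQSTM1, LAMP2 and HEXA, and of the 11 differences 8 were under 20 alternatives, all but ATG9A, ATG16L1 and LAMP1. No called value changed sign. With equal totals members called lower numbered 3 with selinexor and 4 with XPO1 siRNA, other pathway genes called lower with XPO1 siRNA 27, and the member median with XPO1 siRNA was 0.17. Of all genes 23% and 20.7% were called lower with that scaling, and their median with XPO1 siRNA was 0.09. With no intensity trend 3 members were called lower with selinexor, and the share of all genes called lower moved from 26.3% to 23.4%. Leaving out 1 library gave 2 to 9 members and 12 to 29 other pathway genes called lower with selinexor. Of all genes 19.2% to 33.2% were then called lower. In the difference 26 to 63 other pathway genes were called, the highest without selinexor replicate 1. There 16.5% of all genes lay above and 27.5% below, beside 11.6% and 20.2% with all libraries. The member median with XPO1 siRNA was 0.013 to 0.11 with 1 library left out, the lowest without control siRNA replicate 3. That of all genes was -0.0014 to 0.0033. Apart from fewer libraries where 1 was left out, the cause was not tested. The deviations of same-numbered libraries were weakly correlated, from -0.104 to 0.119, beside -0.0929 to 0.0914 for libraries of unlike number. With 3 libraries a group these values cannot show whether same-numbered libraries shared a culture or batch. With a replicate block 13 members were called higher and 7 lower with selinexor, ATG2B (adjusted p = 0.0638) and ATG9A (adjusted p = 0.0798) being lost, 14 and 7 with XPO1 siRNA, and 9 in the difference. Of all genes 22% were higher and 25.8% lower with selinexor in that fit, and 25.2% and 27.7% with XPO1 siRNA. In the difference 10.4% of all genes lay above and 18.9% below.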
